A study of Drosophila melanogaster with 8 samples.

Results

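Many Drosophila genes can be transcribed from several promoters that lie far apart, and the start clusters of such genes were read here for the presence of NELF-E, one of the subunits of Negative Elongation Factor (NELF). A start cluster groups the annotated transcript starts of 1 gene that lie less than 500 bp from each other. Genes were taken if they were protein-coding, had at least 3 clusters, and had every cluster at least 1000 bp from the next, by the Ensembl BDGP6 annotation. Each cluster was padded by 250 bp on both sides, and a cluster was occupied in a library if that library's peak list overlapped the padded window by at least 1 bp. The rule used the annotation alone and found 1381 clusters in 376 genes, of 17179 clusters in 13968 protein-coding genes. Of these genes, 238 had 3 clusters, 85 had 4, 27 had 5, and the rest had 6 to 9 apart from the actin-binding protein gene Svil with 16. Read in the direction of transcription, the clusters were 376 first, 629 middle and 376 last ones, and neighbouring clusters lay a median of 4586 bp apart (1003 to 248246 bp). A further 272 genes with at least 3 clusters had a gap under 1000 bp and were not members.

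NELF-E was mapped by ChIP-seq, in which chromatin bound by an antibody against the protein is sequenced. The cells were Kc167, a female line of embryonic origin with hemocyte character. The siAGO2 cells were transfected with an siRNA against the Argonaute gene AGO2, and the mock cells went through the same transfection with no siRNA or dsRNA. Cells were collected 3 days later, with 2 replicates of each treatment and 1 peak list per replicate. The labels do not say whether replicates came from separate cultures, so tests over libraries measure the spread between these samples, which may be technical.

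NELF acts with the factor DSIF to hold RNA polymerase II shortly downstream of the start, until the kinase P-TEFb releases it into elongation. In flies such pausing is known for developmental and signal-responsive genes, whose promoters often carry elements bound by the GAGA factor, an initiator and a pause button downstream of the start. Housekeeping promoters more often carry the DNA replication-related element, or DRE. AGO2 is the Argonaute that carries siRNAs in flies. Alternative promoters of 1 gene give transcripts that differ in their first exon, so peaks were read by the start cluster whose window they overlap. An overlap does not assign a peak to that start. Of 462 and 454 peaks in member windows in siAGO2 libraries, 7 and 7 reached 2 or more of the windows. In mock libraries it was 16 and 11 of 555 and 509.

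The 5 genes below, each with a peak at a single cluster and the same cluster in all 4 libraries, show what lies at an occupied start and at the unoccupied starts of the same gene. The cluster with the peaks was the first in yuri, a middle one in CG8036 and hwt, and the last in Rgl, which encodes a Ral exchange factor, and in cpo, which encodes the RNA-binding protein Couch potato. The sequences are from the RefSeq Release 6 genome (dm6) and run 5′ to 3′ on the strand of the gene, with 60 bases before the annotated start and 30 from the start onward. Capitals mark the letters GAGAG (an element bound by the GAGA factor), TATAAA (the TATA box), TCAGT (the core of the initiator), ATCGAT (the core of the DRE), CGGACG (a form of the pause button) and its variant CGAACG, each also where its reverse complement stood.
yuri cluster 1 of 3, minus strand, chr2L:15264663-15264752: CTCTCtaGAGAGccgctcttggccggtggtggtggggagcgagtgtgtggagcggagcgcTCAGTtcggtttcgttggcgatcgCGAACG
yuri cluster 2 of 3, minus strand, chr2L:15262773-15262862: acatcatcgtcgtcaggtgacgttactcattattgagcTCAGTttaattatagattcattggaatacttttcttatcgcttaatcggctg
yuri cluster 3 of 3, minus strand, chr2L:15259714-15259803: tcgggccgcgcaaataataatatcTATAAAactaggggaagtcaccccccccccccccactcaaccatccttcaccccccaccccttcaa
CG8036 cluster 1 of 3, plus strand, chr3R:8667808-8667897: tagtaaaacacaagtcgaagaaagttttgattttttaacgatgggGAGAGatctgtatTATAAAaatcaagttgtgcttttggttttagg
CG8036 cluster 2 of 3, plus strand, chr3R:8669558-8669647: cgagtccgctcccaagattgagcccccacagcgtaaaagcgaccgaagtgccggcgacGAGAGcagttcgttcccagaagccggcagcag
CG8036 cluster 3 of 3, plus strand, chr3R:8670591-8670680: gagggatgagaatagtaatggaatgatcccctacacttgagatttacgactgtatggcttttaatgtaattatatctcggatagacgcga
hwt cluster 1 of 3, minus strand, chrX:12568423-12568512: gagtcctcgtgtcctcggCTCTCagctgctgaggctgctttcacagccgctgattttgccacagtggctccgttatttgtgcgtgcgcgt
hwt cluster 2 of 3, minus strand, chrX:12546953-12547042: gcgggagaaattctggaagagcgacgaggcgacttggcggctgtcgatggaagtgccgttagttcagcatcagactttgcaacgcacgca
hwt cluster 3 of 3, minus strand, chrX:12531204-12531293: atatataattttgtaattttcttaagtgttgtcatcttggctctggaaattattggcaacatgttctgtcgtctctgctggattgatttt
Rgl cluster 1 of 3, minus strand, chr3L:13925306-13925395: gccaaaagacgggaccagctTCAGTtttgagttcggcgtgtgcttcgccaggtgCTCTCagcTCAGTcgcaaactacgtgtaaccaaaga
Rgl cluster 2 of 3, minus strand, chr3L:13922268-13922357: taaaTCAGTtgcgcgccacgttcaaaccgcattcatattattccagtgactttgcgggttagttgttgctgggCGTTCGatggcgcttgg
Rgl cluster 3 of 3, minus strand, chr3L:13919936-13920025: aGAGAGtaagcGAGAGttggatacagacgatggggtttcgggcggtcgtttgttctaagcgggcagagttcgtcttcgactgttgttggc
cpo cluster 1 of 3, plus strand, chr3R:17919772-17919861: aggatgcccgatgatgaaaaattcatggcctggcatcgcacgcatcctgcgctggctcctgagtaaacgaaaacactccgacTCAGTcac
cpo cluster 2 of 3, plus strand, chr3R:17931811-17931900: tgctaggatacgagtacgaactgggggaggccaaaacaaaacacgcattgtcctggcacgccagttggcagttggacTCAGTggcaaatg
cpo cluster 3 of 3, plus strand, chr3R:17944046-17944135: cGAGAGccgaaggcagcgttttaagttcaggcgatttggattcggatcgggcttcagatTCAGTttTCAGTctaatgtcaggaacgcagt
The occupied starts yuri 1, CG8036 2, Rgl 3 and cpo 3 held GAGAG in the printed stretch and the occupied start hwt 2 held none of the words, while the unoccupied starts CG8036 1, Rgl 1 and hwt 1 held GAGAG on one of the strands. The printed genes are thus examples, and the counts over all clusters are given further on. A match is a description of the letters and not of a bound factor.

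The libraries differed in depth along with treatment. The lists held 5904 and 6206 peaks in siAGO2 replicates 1 and 2, and 7944 and 6933 peaks in mock replicates 1 and 2. The median summit at a member cluster held 48 and 54 fragments in siAGO2 libraries, against 129 and 78 fragments in mock libraries, as solved from the deposited fold and p-value. Both siAGO2 libraries were shallower than both mock libraries, so depth and treatment cannot be told apart. Fragments at a summit stopped at 294 in every list, and 10 and 10 occupied clusters in siAGO2 libraries had 250 or more, against 93 and 37 in mock libraries. Peaks were therefore set side by side between libraries by their rank within the list as well as by fragments. Of 16 hemocyte marker genes, 10 had a peak in all 4 lists, including the GATA factor gene srp and its cofactor gene ush, and He, NimC1, Sr-CI, PPO1 and PPO2 had none. Of 6 neuronal markers 1 had a peak in all 4 lists, and of 5 muscle markers 2.

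Over all positions the clusters were occupied about as often as those of other genes. A peak stood at 33.1% and 32.9% of member clusters in siAGO2 libraries, against 40.3% and 36.9% in mock libraries. Over all protein-coding clusters the background was 32.7% and 34.6% in siAGO2 libraries, against 42.3% and 37.4% in mock libraries. Members lay 1.04 percentage points below the clusters of the other genes on average (exact sign-flip permutation test over 4 libraries, p = 0.25), a difference whose sign turned with the definition of the window. With the peak summit required inside the window it was 0.710 points above.

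NELF-E was found most often at the first cluster of a gene and least often at the last. A first cluster had a peak in 44.7% (Wilson 95% interval 39.7 to 49.7%) and 43.4% (38.4 to 48.4%) of genes in siAGO2 replicates 1 and 2, and in 56.1% (51.1 to 61.0%) and 49.2% (44.2 to 54.2%) in mock replicates 1 and 2. A middle cluster had a peak in 33.1% and 33.1% in siAGO2 libraries, against 39.3% and 36.4% in mock libraries. A last cluster had a peak in 21.5% (17.7 to 26.0%) and 22.3% (18.4 to 26.8%) in siAGO2 libraries, against 26.1% (21.9 to 30.7%) and 25.5% (21.4 to 30.2%) in mock libraries. The order first, middle, last held in each of the 4 libraries, and first clusters exceeded last clusters by a mean of 24.5 percentage points. The gap was above 0 in 4 of 4 libraries (exact sign-flip permutation test over libraries, two-sided, p = 0.125, the smallest that 4 libraries allow). Intervals cover counting error only.

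**Figure D1:**
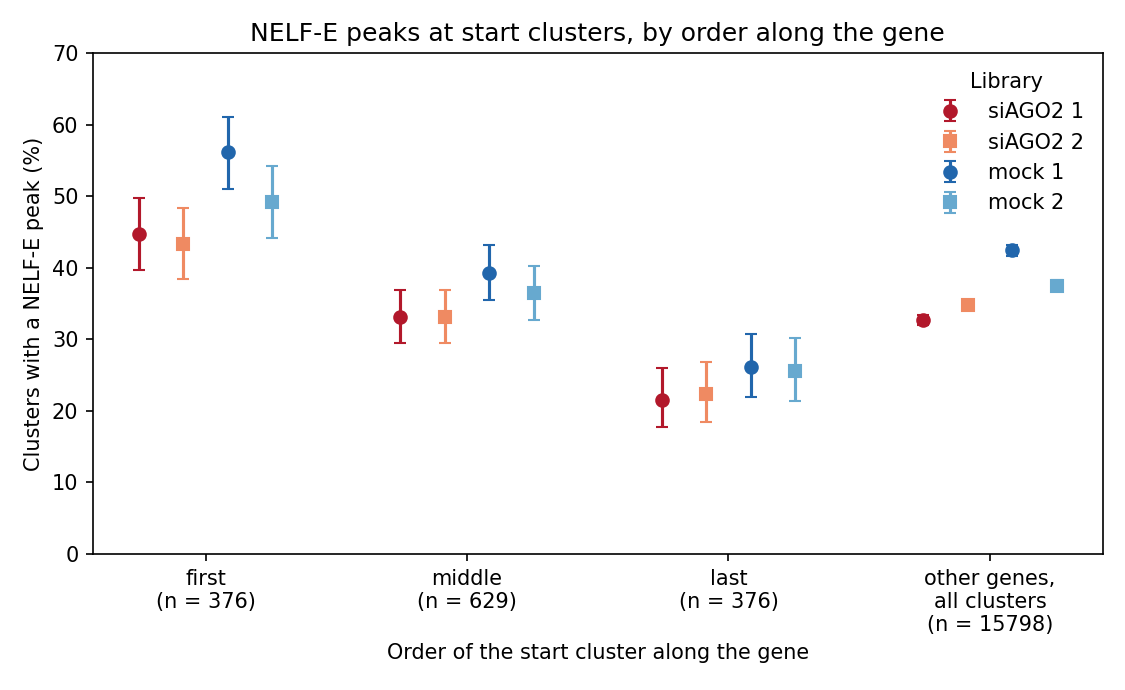
Percentage of start clusters with a NELF-E peak, for the first, middle and last clusters of the 376 genes and for all clusters of the other protein-coding genes, with 1 point per library and Wilson 95% intervals. In every library the first clusters lie highest (43.4 to 56.1%) and the last clusters lowest (21.5 to 26.1%).

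The annotation itself differed with position. First clusters had a mean of 2.53 transcripts, against 1.91 at middle and 1.78 at last clusters, and 19.9% of first windows also held a start of another gene, against 5.25% of middle and 5.59% of last windows. First clusters again exceeded last clusters among those with a single transcript and no start of another gene. There, 27.0% and 27.0% of 126 first clusters had a peak in siAGO2 libraries, against 40.5% and 32.5% in mock libraries. Of 336 such middle clusters, 24.7% and 24.7% had a peak in siAGO2 libraries, against 31.2% and 27.7% in mock libraries, so first and middle clusters lay closer together than over all members. Of 227 such last clusters, 11.9% and 11.5% had a peak in siAGO2 libraries, against 14.1% and 14.1% in mock libraries.

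In many genes NELF-E stood at some clusters and not at others. A peak was present in all 4 lists at 429 clusters (31.1%, against a background of 30.5% over all protein-coding clusters) and in no list at 819 (59.3%, against a background of 57.0%). Of the clusters with a peak in all 4 lists, 156 were first (41.5% of first clusters), 196 middle (31.2%) and 77 last (20.5%). In 215 genes a cluster with a peak in all 4 lists stood beside a cluster with a peak in none. Of the 376 genes, 122 and 126 had no occupied cluster in siAGO2 libraries, against 89 and 108 in mock libraries. Exactly 1 cluster was occupied in 111 and 108 genes in siAGO2 libraries, against 112 and 108 genes in mock libraries. At least 2 were occupied in 143 and 142 genes in siAGO2 libraries, against 175 and 160 genes in mock libraries, and every cluster was occupied in 15 and 16 genes in siAGO2 libraries, against 29 and 22 in mock libraries. The number of genes with a single occupied cluster was thus nearly alike in the 4 libraries, while genes with several were fewer in both siAGO2 libraries.

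The choice of cluster was largely the same in the 4 libraries. The full pattern of occupied clusters was identical in all 4 in 258 genes (68.6%), of which 88 had none occupied, 72 had 1 and 98 had at least 2. Of the 72 with a single cluster, it was the first in 36, a middle one in 21 and the last in 15. Among the 238 genes with 3 clusters, the patterns shared by all 4 libraries were none occupied in 58, first and middle in 31, first only in 27, middle only in 15, last only in 12, all 3 in 12, first and last in 10, and middle and last in 5. The first cluster was occupied without the last in 126 and 120 genes in siAGO2 libraries, against 147 and 131 in mock libraries. The last was occupied without the first in 39 and 41 genes in siAGO2 libraries, against 34 and 42 in mock libraries. Each gene has 1 first and 1 last cluster, so these counts restate by gene the surplus of first over last clusters given above.

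**Figure D2:**
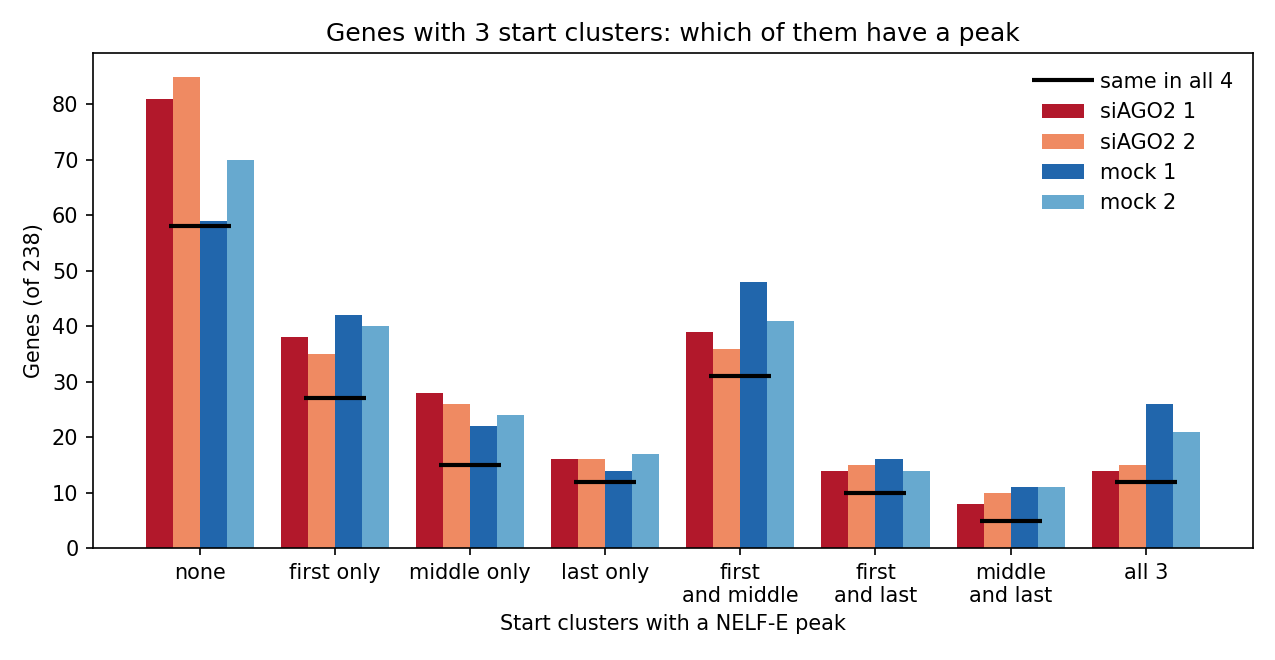
Number of the 238 genes with 3 start clusters that showed each pattern of occupied clusters, with bars for each library and black marks for the genes in which all 4 libraries showed it. All 3 clusters were occupied in 14 and 15 genes in siAGO2 libraries, against 26 and 21 genes in mock libraries.

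The genes with a single occupied cluster and the highest peak ranks are of varied function. Ranks are given as the percentile of a peak's score within its own list. Where the first cluster alone was occupied, the 5 highest-ranked genes were blow, which acts in myoblast fusion, yuri, CG30015, FER, a non-receptor tyrosine kinase gene, and the metalloprotease gene AdamTS-A. At the first cluster of yuri (position 15264692 on chromosome 2L) the peak held 236 and 233 fragments in siAGO2 libraries, against 289 and 266 in mock libraries. Its percentile was 98.3 and 99.3 in siAGO2 libraries, against 93.9 and 99.4 in mock libraries, and its summit lay 12 to 36 bp downstream of the start in the 4 libraries. The other clusters of yuri, 15262802 and 15259743, had no peak in any list.

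Where a middle cluster alone was occupied, the 5 highest-ranked genes were CG8036, the glycosyltransferase gene Pgant9, the esterase gene alpha-Est10, hwt, and the sleep regulator gene wake. The middle cluster of CG8036 (8669618 on chromosome 3R) held 176 and 177 fragments in siAGO2 libraries, against 283 and 243 in mock libraries, at percentiles of 96.3 and 94.0 in siAGO2 libraries, against 98.1 and 98.9 in mock libraries. Its first and last clusters lie at 8667868 and 8670651, on either side of the occupied start.

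Where the last cluster alone was occupied, the 5 highest-ranked genes were Rgl, the Golgi protein gene Gmap, the acyl-CoA synthetase gene pdgy, cpo, and the mitochondrial carrier gene aralar1. At the last cluster of Rgl (13919965 on chromosome 3L) the peak held 200 and 212 fragments in siAGO2 libraries, against 287 and 247 in mock libraries. Its fold over the local background was 70.1 and 38.5 in siAGO2 libraries, against 18.9 and 30.4 in mock libraries, and its percentile was 99.0 and 98.2 in siAGO2 libraries, against 98.4 and 99.1 in mock libraries. The last cluster of cpo (17944106 on chromosome 3R) held 191 and 200 fragments in siAGO2 libraries, against 279 and 240 in mock libraries, at percentiles of 97.6 and 97.8 in siAGO2 libraries, against 97.1 and 98.0 in mock libraries. In yuri, CG8036, Rgl and cpo the occupied start thus had a percentile of 93.9 or higher in every list, beside starts of the same gene with no peak in any.

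Genes with many occupied clusters differed in NELF-E level from cluster to cluster. The cAMP phosphodiesterase gene dnc had peaks in all 4 lists at its first 5 clusters of 8 and none at clusters 6 to 8. Cluster 3 (3289381 on X) held 215 and 221 fragments in siAGO2 libraries, against 289 and 252 in mock libraries. Cluster 1 (3176440) held 30 and 31 fragments in siAGO2 libraries, against 77 and 47 in mock libraries, so the same start was highest in each library. Svil had a peak in all 4 lists at 5 of 16 clusters (3, 7, 8, 9 and 14), with the highest at cluster 7 (166 and 159 fragments in siAGO2 libraries, against 278 and 220 in mock libraries). In klar, whose protein ties nuclei to microtubules, clusters 1 to 4 of 5 were occupied throughout and cluster 2 ranked highest in each library (percentiles 96.6 and 97.2 in siAGO2 libraries, against 98.6 and 96.7 in mock libraries). In ps, which encodes the splicing factor Pasilla, clusters 1, 2, 3 and 6 of 6 were occupied throughout, and the last held 238 and 243 fragments in siAGO2 libraries, against 291 and 273 in mock libraries. SNF4Agamma, the gene of the AMPK gamma subunit, had clusters 3, 5, 6 and 8 of 9 occupied throughout, and sgg, the gene of the GSK3 kinase of Wingless signalling, had clusters 1, 4, 6 and 7 of 8. The mock summits counted at sgg cluster 1 lay 742 and 755 bp downstream of its start.

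In the ecdysone cascade, by which the steroid hormone sets off moulting and metamorphosis, the last clusters of the 4 member genes had a peak in every library, beside 20.5% of all last clusters. Of the 13 genes listed, 4 were members, with 19 clusters, of which 8 had a peak in all 4 lists and 6 in none (42.1%, against the background of 30.5%). The last cluster of EcR, the ecdysone receptor gene, held 226 and 242 fragments in siAGO2 libraries, against 287 and 262 in mock libraries. The first EcR cluster had no peak in siAGO2 replicate 1, 23 fragments in siAGO2 replicate 2, and 99 and 46 fragments in mock libraries. The second had none in siAGO2 libraries, against 78 and 40 fragments in mock libraries. In Hr3, a nuclear receptor gene, the last of 3 clusters alone was occupied, with 124 and 137 fragments in siAGO2 libraries, against 243 and 181 in mock libraries. That window also held a start of another gene, so the peak cannot be assigned to Hr3. Its summits lay at 38 and 30 bp from the Hr3 start in siAGO2 libraries, against -34 and -39 bp in mock libraries. Eip75B is an ecdysone-induced nuclear receptor gene on 3L. Its clusters 5, 6 and 7 of 7 ranked at percentiles of 94.0 to 96.9 in siAGO2 libraries, against 93.6 to 99.4 in mock libraries. The summits of cluster 5 lay 312 to 326 bp downstream of its start, outside the window. Those of cluster 6 lay 224 to 259 bp downstream, some of them outside the window. The seventh cluster of Eip75B (17961814) held 143 and 177 fragments in siAGO2 libraries, against 281 and 222 in mock libraries. In br, the Broad transcription factor gene, clusters 1 to 3 of 6 had no peak, and the sixth held 69 and 71 fragments in siAGO2 libraries, against 178 and 109 in mock libraries. Of the 19 clusters, 3 had peaks in both mock and neither siAGO2 library, beside a background of 2.60% over all protein-coding clusters. They stood 1 each in EcR, Eip75B and br. Those of Eip75B and br were weak, with 36 and 13 fragments and 45 and 23 fragments in mock replicates 1 and 2. So small a count was not tested.

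**Figure D3:**
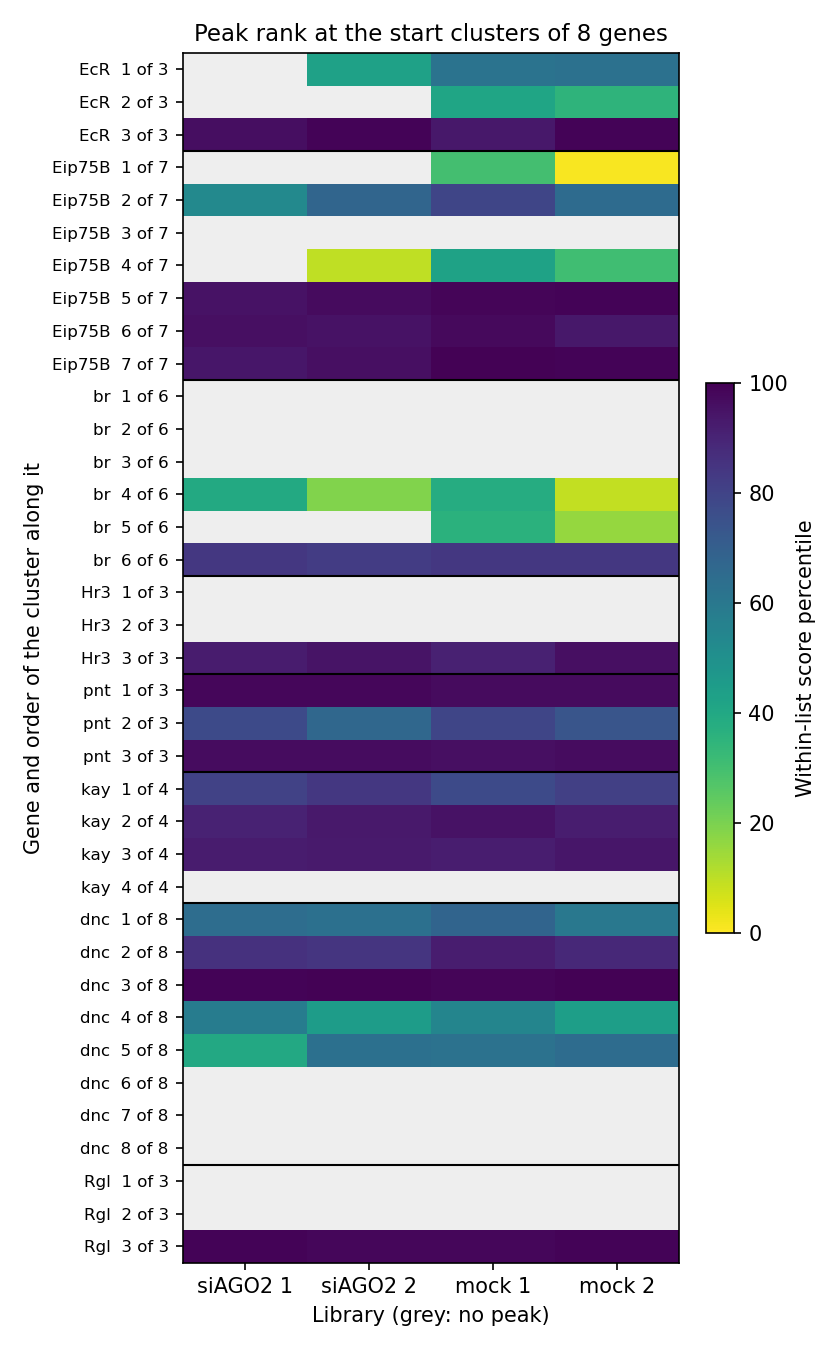
Within-list score percentile of the peak at each start cluster of 8 genes, with clusters running down in the order of transcription, 1 column per library, and grey where a library had no peak. In EcR, Eip75B, br, Hr3 and Rgl the last cluster was occupied in every library, whereas in dnc clusters 6 to 8 and in kay cluster 4 had no peak in any.

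Sequence-specific regulators were often occupied. Of 37 listed, 11 were member genes, and 21 of their 39 clusters had a peak in all 4 lists (53.8%, against the background of 30.5%). In pnt, an ETS factor gene of EGF receptor signalling, all 3 clusters were occupied. Its first (23346167 on chromosome 3R) held 208 and 206 fragments in siAGO2 libraries, against 279 and 251 in mock libraries, and its second (23314315) held 89 and 75 fragments in siAGO2 libraries, against 199 and 117 in mock libraries. In kay, the Fos gene, clusters 1 to 3 of 4 were occupied, at percentiles of 80.4, 90.4 and 92.2 in siAGO2 replicate 1. In ush, the last 2 of 3 clusters were occupied, at percentiles of 97.6 and 98.9 in siAGO2 replicate 1, the summits of the last lying 251 to 287 bp downstream of its start. Mef2, the gene of a muscle and hemocyte regulator, was occupied at both ends and not in the middle. Antp, a Hox gene, had no peak at any of its 3 clusters. In vri only the last cluster was occupied throughout, with 31 and 36 fragments in siAGO2 libraries, against 95 and 41 in mock libraries. Cluster 3 of srp ranked at percentiles of 99.4 and 99.9 in siAGO2 libraries, against 96.5 and 99.3 in mock libraries, although its summit lay 480 to 496 bp downstream of the start, outside the window.

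Signalling enzymes and RNA-binding proteins were occupied less often than the sequence-specific regulators. Of 8 genes of signalling kinases and phosphatases, with 36 clusters, 16 clusters had a peak in all 4 lists (44.4%, against the background of 30.5%). All 3 clusters of par-1, a polarity kinase gene, were occupied throughout. Of 8 genes of RNA-binding proteins, with 31 clusters, 10 had a peak in all 4 (32.3%, near the background of 30.5%). The 6 clusters of bru1 and the 3 of fne had none in any list.

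The last clusters, although the least often occupied, carried the peaks of highest rank when occupied. Among clusters with a peak in all 4 lists, the median percentile at first clusters was 72.4 and 71.8 in siAGO2 libraries, against 80.9 and 75.2 in mock libraries. At middle clusters it was 74.96 and 74.10 in siAGO2 libraries, against 83.9 and 80.7 in mock libraries, and at last clusters 81.4 and 81.2 in siAGO2 libraries, against 84.5 and 83.8 in mock libraries. The ranks thus increased from first to last in each library, the reverse of the order of occupancy. Within genes this was not seen as clearly. Where both end clusters were occupied, the first ranked higher in 18 and 20 genes and the last in 24 and 23 genes in siAGO2 libraries. In mock libraries the first ranked higher in 30 and 27 genes and the last in 33 and 27 genes.

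**Figure D4:**
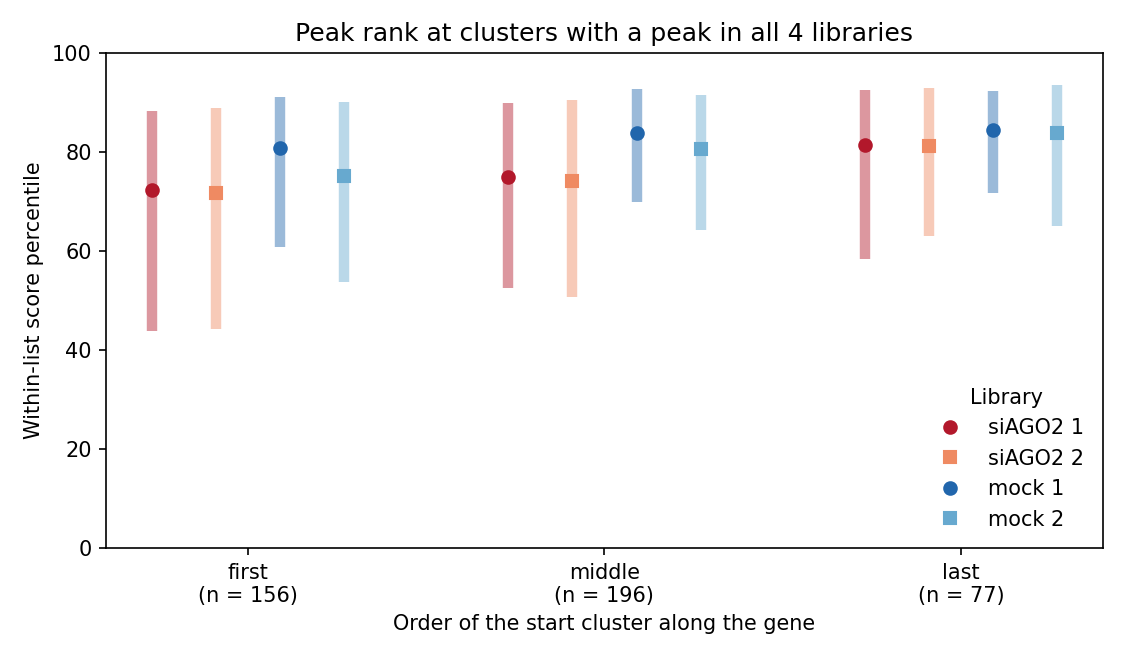
Within-list score percentile of the peaks at clusters occupied in all 4 libraries, as median (points) and interquartile range (bars), by position and library. The medians lie at 71.8 to 80.9 for first clusters and at 81.2 to 84.5 for last clusters.

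Summits lay farther downstream at first clusters. Their median distance from the start used by most transcripts was 62 and 63 bp downstream in siAGO2 libraries, against 57 and 61 bp in mock libraries. At middle clusters it was 24 and 24.5 bp in siAGO2 libraries, against 24 and 21 bp in mock libraries, and at last clusters 31 and 29 bp in siAGO2 libraries, against 23.5 and 25 bp in mock libraries. First clusters thus had the larger distance in every library, and middle and last clusters differed little.

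Sequence around the starts differed between occupied and unoccupied clusters, and the difference depended on position. The words were counted on both strands in the 150 bases from 100 before the start to 50 from it. No word contains another, and overlapping matches of 1 word were counted once per window. GAGAG stood in 40.6% of the 429 clusters with a peak in all 4 lists, against 25.3% of the 819 with none and 20.1% of all protein-coding clusters. By position it stood in 26.3% of occupied and 29.3% of unoccupied first clusters, in 46.4% of occupied and 24.8% of unoccupied middle clusters, and in 54.5% of occupied and 23.6% of unoccupied last clusters. ATCGAT showed another pattern. It stood in 21.8% of occupied and 6.10% of unoccupied first clusters, in 4.59% and 5.01% of occupied and unoccupied middle clusters, and in 3.90% and 4.35% of occupied and unoccupied last clusters, with 15.5% over all protein-coding clusters. Over all protein-coding clusters, GAGAG stood in 24.2% of those with a peak in all 4 lists and 18.7% of those with none. ATCGAT stood in 25.4% and 7.98% of these. Occupied middle and last member clusters thus held the GAGA element more often than their unoccupied counterparts. Occupied first clusters held the DRE core more often, as did occupied clusters over all protein-coding genes. These first windows are also the ones that most often held a start of another gene, and the part of that in the counts was not tested.

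**Figure D5:**
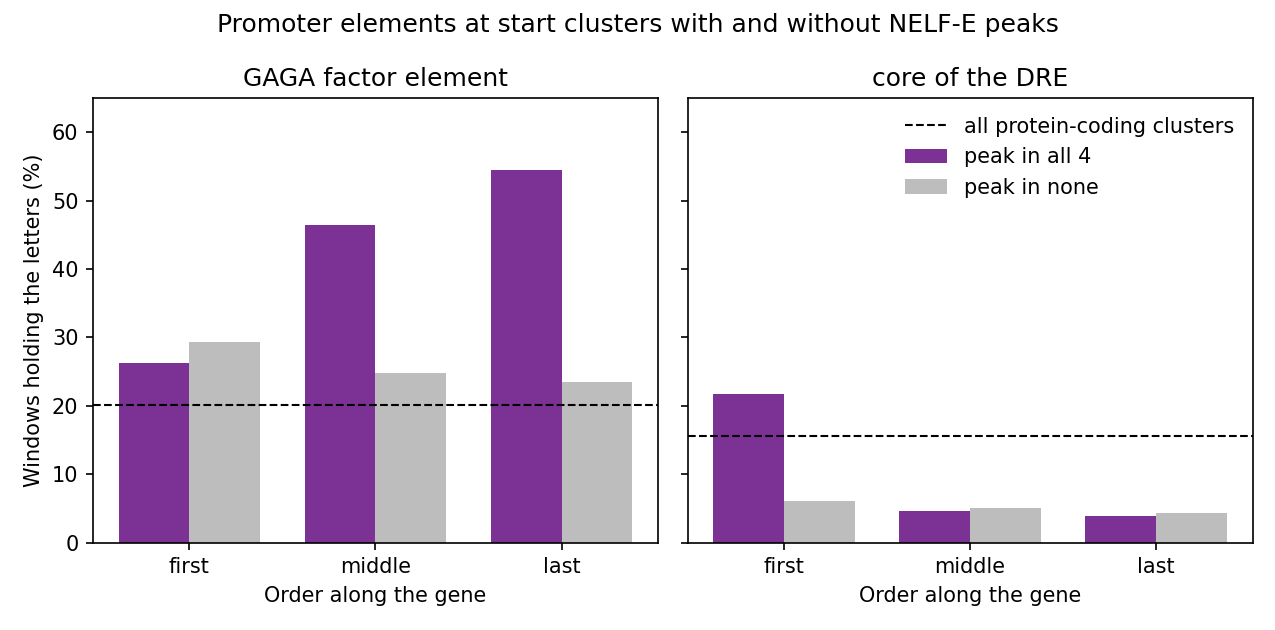
Percentage of 150-base windows holding GAGAG (left) or ATCGAT (right) on either strand, for clusters with a peak in all 4 libraries and in none, by position, with a dashed line at the value for all protein-coding clusters. GAGAG stood in 54.5% of occupied last clusters, against 23.6% of unoccupied ones, and ATCGAT in 21.8% of occupied first clusters, against 6.10% of unoccupied ones.

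The contrast was also present when only genes with both kinds of cluster were taken. In these 215 genes, GAGAG stood in 42.5% of 358 occupied and 24.0% of 404 unoccupied clusters. These clusters were pooled over genes, neither paired by gene nor matched for position, and the 358 are among the 429 above. The pause button form CGAACG stood in 19.1% of all occupied and 8.55% of all unoccupied member clusters (8.11% of all protein-coding clusters), and CGGACG in 11.4% and 5.86% of occupied and unoccupied ones (4.31% of all). TATAAA was rarer at occupied than at unoccupied clusters (7.23% against 14.2%, and 22.0% of all), and TCAGT was about as common (45.2% against 46.0%, and 38.3% of all). Most of these TATAAA matches did not lie where a TATA box does. In bases 40 to 16 before the start and on its strand, TATAAA stood in 1.40% of occupied and 3.54% of unoccupied member clusters (7.06% of all). Over all protein-coding clusters, occupied ones also held TATAAA less often than unoccupied ones (14.2% against 26.8%). There CGAACG stood in 10.7% against 7.12%, CGGACG in 6.13% against 3.69% and TCAGT in 34.4% against 42.2%. Within 10 bases of the start and on its strand, TCAGT stood in 23.8% of occupied and 19.4% of unoccupied member clusters (13.7% of all). There it stood in 16.7% of occupied and 24.4% of unoccupied first clusters, in 28.6% and 16.6% of occupied and unoccupied middle clusters, and in 26.0% and 20.3% of occupied and unoccupied last clusters. Base composition moved along with these words. The median GC content was 50.7% in occupied and 46.0% in unoccupied windows, and by position 47.7% and 47.7% at occupied and unoccupied first, 52.0% and 47.3% at middle, and 52.7% and 44.7% at last clusters. Its part in the counts was not tested.

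The siAGO2 libraries held fewer occupied clusters at every position. The percentage of member clusters with a peak was 33.0 ± 0.102 in siAGO2 and 38.6 ± 2.36 in mock libraries (SD, n = 2 each), a difference of -5.58 percentage points. At first clusters it was 44.0 ± 0.940 in siAGO2 and 52.7 ± 4.89 in mock libraries, and at last clusters 21.9 ± 0.564 in siAGO2 and 25.8 ± 0.376 in mock libraries (SD, n = 2 each). The differences were -8.64 points at first and -3.86 points at last clusters. The gap between first and last clusters was 22.1 ± 1.50 points in siAGO2 and 26.9 ± 4.51 points in mock libraries (SD, n = 2 each), a difference of -4.79 points. Genes with at least 2 occupied clusters made up 37.9% ± 0.188 in siAGO2 and 44.5% ± 2.82 in mock libraries (SD, n = 2 each), a difference of -6.65 points. The groups did not overlap in these measures, but each exact permutation test gave p = 0.333, the smallest that 2 libraries against 2 allow. Clusters of other genes showed a like difference, of -6.22 points. In genes with 2 clusters the differences were -6.68 points at first and -5.51 at last clusters. In the genes left out for clusters under 1000 bp apart they were -6.07 at first and -2.76 at last clusters. Each list was also cut to its top-scoring peaks, as many as the shortest list held. The differences at member clusters were then -1.88 points for all clusters, -2.66 for first and -2.26 for last clusters. They were -0.399 for the gap and -1.33 for genes with at least 2 occupied clusters. At first clusters the difference was -5.19 points without mock replicate 1 and -12.1 without mock replicate 2, and for the gap it was -1.60 without mock replicate 1 and -7.98 without mock replicate 2.

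Clusters occupied in mock cells alone, meaning in both mock libraries but neither siAGO2 library, numbered 39 (2.82%, against a background of 2.60% over all protein-coding clusters), with 15 first, 16 middle and 8 last. The reverse was found at 0 clusters, against a background of 0.0175%. With equal list lengths the counts were 16 in mock alone and 4 in siAGO2 alone, and without mock replicate 2 the first count was 80. Peaks at the 39 clusters were weak, with a median of 37 and 19 fragments in mock libraries and median percentiles of 25.4 and 16.8. They lay in 37 genes, of which 24 kept another cluster with a peak in all 4 libraries, and no gene had a cluster of each kind.

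The 6 such clusters of highest rank were in Tlk, yin, sd, Pfrx, spri and fw. All 6 lie on X, but X held 11 of the 39 (28.2%, beside 22.2% of member clusters), and over all protein-coding clusters the share occupied in mock cells alone was 2.32% on X and 2.65% elsewhere. In Tlk, a chromatin kinase gene, the peak at the first cluster held 232 and 136 fragments in mock libraries, but its summit lay at -490 and -446 bp from the start, that is upstream of it. A siAGO2 peak came within 22 and 14 bp of the window in replicates 1 and 2, and at yin the mock peaks held 139 and 88 fragments with summits at -451 and -452 bp from the first start, with siAGO2 peaks 57 and 62 bp from the window. In sd, the gene of the TEAD factor of the Hippo pathway, cluster 4 of 6 held 58 and 30 fragments in mock libraries, while clusters 1 and 3 were occupied in all 4. The fifth of 5 clusters of Pfrx, which encodes a regulator of glycolysis, held 64 and 33 fragments in mock libraries, and the first of 3 clusters of fw, the gene of the adhesion protein Furrowed, held 36 and 30. In spri, which encodes the Rab exchange factor Sprint, the fifth of 5 clusters held 65 and 31 fragments in mock libraries and had no siAGO2 peak within 6850 bp. Its first cluster held 232 and 229 fragments in siAGO2 libraries, against 291 and 278 in mock libraries, and cluster 4 held 218 and 243 fragments in siAGO2 libraries, against 290 and 258 in mock libraries. The starts of spri are shown, with the same marks as above, because clusters 1 and 4 were occupied throughout, 2 and 3 in no library, and 5 in mock cells alone.
spri cluster 1 of 5, minus strand, chrX:10585393-10585482: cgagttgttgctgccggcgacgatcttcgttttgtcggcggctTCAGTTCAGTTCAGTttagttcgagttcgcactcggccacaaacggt
spri cluster 2 of 5, minus strand, chrX:10557333-10557422: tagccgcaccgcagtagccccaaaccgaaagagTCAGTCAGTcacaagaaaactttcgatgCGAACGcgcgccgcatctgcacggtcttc
spri cluster 3 of 5, minus strand, chrX:10555430-10555519: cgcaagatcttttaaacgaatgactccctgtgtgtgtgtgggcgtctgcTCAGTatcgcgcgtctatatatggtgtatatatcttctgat
spri cluster 4 of 5, minus strand, chrX:10546725-10546814: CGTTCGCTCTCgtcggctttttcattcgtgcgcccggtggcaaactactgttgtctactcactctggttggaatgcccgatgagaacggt
spri cluster 5 of 5, minus strand, chrX:10493712-10493801: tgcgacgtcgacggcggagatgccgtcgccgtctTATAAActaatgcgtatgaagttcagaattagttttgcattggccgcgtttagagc
The stretch of spri cluster 5 held TATAAA. The unoccupied cluster 2 held CGAACG on the strand of the gene, just past the start. Cluster 4 held it only as the reverse complement, upstream of the start, which is not where a pause button lies. Cluster 1, also occupied, held neither pause button form, so these words did not follow occupancy in spri. GAGAG stood, as its reverse complement, in the occupied cluster 4 alone. Of the 39 clusters, 32 had both mock summits inside the window and no siAGO2 peak within 500 bp.

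The strongest cluster of a gene seldom changed. Of 245 genes with a peak in every library, 215 had the same strongest cluster in all 4 (87.8%), and among 131 genes with at least 2 occupied clusters in each library it was the same in 104 (79.4%). In 4 genes the strongest cluster was one in both siAGO2 libraries and another in both mock libraries. In raskol, a Ras GTPase-activating protein gene, cluster 3 led in siAGO2 libraries (percentiles 92.6 and 91.9, against 90.4 and 91.5 at cluster 1), and cluster 1 led in mock libraries (95.6 and 93.6, against 92.9 and 90.7 at cluster 3). In Kank, a gene of a cytoskeletal adaptor, the sixth cluster led in siAGO2 libraries (48.5 and 57.2, against 42.1 and 42.8 at the fifth), and the fifth in mock libraries (78.7 and 70.4, against 59.2 and 36.1 at the sixth). In Pdp1, a circadian transcription factor gene, the mock peaks that led at the second cluster (96.1 and 93.9) had summits 699 and 687 bp downstream, outside the window, and cluster 4 led in siAGO2 libraries (50.6 and 49.0). In Tlk the leading mock peak was the one described above, at the first cluster (94.4 and 87.2), and the seventh cluster led in siAGO2 libraries (67.8 and 82.0). Differences in the leading cluster were thus within a few percentiles in raskol and rested on summits outside the window in Pdp1 and Tlk. In Kank they were larger than in raskol, and the summits lay inside the windows, at -37 to 36 bp at cluster 5 and 121 to 167 bp at cluster 6.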

How the data were processed

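NELF-E ChIP-seq was read in 4 peak lists, 2 of siAGO2 and 2 of mock cells. The 4 inputs were not analysed here. Per the labels, the authors used cutadapt 1.10, Bowtie2, Picard 2.11.0 and MACS2 2.1.1.20160309, calling peaks on each replicate against the dm6 genome. Genome size and fragment length settings are not given in the sources used here. The deposited score equals −log10 q-value times 10 with decimals dropped. The authors' −log10 p-value and −log10 q-value and the deposited fold (summit over local background) were used as given. The lists hold no counts, so no count model was run, and occupancy was compared in its place. The lowest −log10 q-value was 1.30 to 1.32.

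Start clusters came from Ensembl release 115, with dm6 coordinates. Fragments at a summit were solved from fold and p-value as the nearest whole number, with a tolerance of 0.1 fragments and after a fitted pileup scale of 0.919 in mock replicate 1, and the background used as relative depth was 1.18, 1.48, 4.46 and 2.19 fragments in siAGO2 1, siAGO2 2, mock 1 and mock 2. A cluster took its highest-scoring peak, and percentiles are mid-ranks within a list. Differences were tested by two-sided exact permutation of libraries, or sign-flips over libraries, in Python 3.11.15 with numpy 2.4.6 and scipy 1.17.1, after tests on simulated data. Members, gene lists and tests were chosen with earlier results of these data known. Genes named are those with the most clusters occupied in all 4 lists (8), the highest-ranked with a single occupied first, middle or last cluster (5 each), the highest-ranked mock-only clusters (6), those with the most clusters (5), those whose strongest cluster differed between treatments, and the listed genes. CAP, mtd and Sarm, also among those with the most clusters, and some genes of the lists are not described singly, and 1 gene list is not reported here. Alternatives covered the overlap rule, padding, window, peak threshold, list length, joining distance, transcripts, shared starts, each replicate left out and a replicate block. The summit rule together with equal list lengths was added after seeing the data.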

Additional observations from a re-analysis of the deposited data

How the results depend on the processing

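Of 145 alternative values of the 10 main results, 131 kept their direction, or for counts and the share of strongest clusters stayed near the reported value, 9 moved and 5 turned their sign. The 131 include the replicate-block values, which are the same by construction. They also include the values from protein-coding transcripts only, a setting that left the clusters and every value unchanged. Neither setting could show a change. Direction alone does not show that a size held: with equal list lengths the siAGO2 minus mock differences were -1.88 points for all clusters, -2.66 for first, -2.26 for last, -0.399 for the gap and -1.33 for genes with at least 2 occupied clusters. The difference between member clusters and those of other genes, -1.04 points as reported, became 0.710 with the summit required inside the window, 3.92 with no padding, 1.58 without clusters holding a start of another gene, and 1.49 with the summit rule and equal list lengths together. The siAGO2 minus mock difference in the first-minus-last gap became 1.20 points under the same combination, which was chosen after seeing the data. The count of clusters occupied in mock alone was 39 as reported, 16 with equal list lengths and 13 with the combination, and 41 to 80 when each replicate was left out. The count in siAGO2 alone was 0 as reported, 3 with the summit rule, 4 with equal list lengths and 5 with the combination, and 0 to 3 when each replicate was left out. The percentage of genes with the same strongest cluster was 87.8, and 88.8 to 91.4 when each replicate was left out. The excess of first over last clusters was 18.8 to 26.4 points under the alternatives and 22.6 to 25.6 when each replicate was left out. The causes of these changes were not tested.

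The rank differences between replicates 1 and 2 were nearly uncorrelated between siAGO2 and mock libraries (-0.0495 over 5238 clusters occupied in all 4 libraries). They thus gave no sign that replicate numbers pair the samples. This cannot show that samples were not processed in pairs, and the labels do not say. With a replicate block the differences were the same by construction (-5.58 points for all clusters, -8.64 for first, -3.86 for last, -4.79 for the gap and -6.65 for genes with at least 2 occupied clusters), each with an exact sign-flip p of 0.5, the smallest 2 pairs allow. Depth limits what can be said of weak clusters. Peaks seen in mock replicate 1 alone, at 41 clusters, had a median of 29 fragments.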

Other observations

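The surplus of peaks at first starts was also present in genes outside the member set. In the 1460 genes with 2 clusters, the first had a peak in 42.0% and 44.0% in siAGO2 libraries, against 51.6% and 47.7% in mock libraries. The second had one in 25.8% and 27.2% in siAGO2 libraries, against 33.8% and 30.2% in mock libraries. In the 272 genes left out for a gap under 1000 bp, the first cluster had a peak in 54.4% and 57.4% in siAGO2 libraries, against 65.1% and 58.8% in mock libraries. The last of these had one in 23.2% and 25.0% in siAGO2 libraries, against 27.6% and 26.1% in mock libraries.

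Among member clusters occupied in all 4 libraries, 94 ranked higher in both siAGO2 than in both mock libraries (21.9%, against a background of 22.9%), and 114 ranked lower (26.6%, against a background of 20.0%). Of the middle clusters 61 of 196 (31.1%) ranked lower in both siAGO2 libraries, against 36 of 156 first (23.1%) and 17 of 77 last ones (22.1%). Over all protein-coding genes, members included, it was 96 of 333 middle, 848 of 4417 first and 106 of 488 last clusters. The only cluster of a gene counts as first there. The 333 middle clusters include the 196 of member genes, and the 96 include their 61. This set therefore cannot show whether the larger share at middle clusters is particular to member genes. These ranks were taken among the same 5238 protein-coding clusters with a peak in all 4 libraries, and not within the whole lists. The within-list percentiles given elsewhere come from lists of unlike length and are not strictly comparable.

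Of the 88 genes with no peak at any cluster in any library, 75 had no peak over the whole gene in any list, and 8 had a peak elsewhere over the gene in all 4. On X, 103 of 307 member clusters had a peak in all 4 libraries (33.6%), against 30.4% of those on other chromosomes.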
